A study of Mus musculus with 16 samples.

Results

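C-type lectin receptors are cell-surface proteins of myeloid cells, and 9 of their genes (Clec7a, Clec4d, Clec4e, Clec4n, Clec5a, Clec12a, Clec4a1, Clec4a2 and Clec4a3) were followed in RNA sequencing of retinal microglia. The 9 were chosen by symbol from a deposited table of 54532 genes, with their counts in OIR and nonOIR libraries, and the differences between them, already known. Those differences are therefore given as a description, with no p-value, and where members past a threshold are counted the count supports nothing. The study compared microglia of mice with oxygen-induced retinopathy (OIR) with microglia of mice without it (nonOIR). In this model pups spend days in high oxygen, which stops retinal vessels from growing, and back in room air the retina is short of oxygen and forms abnormal vessel tufts. There were 8 OIR and 8 nonOIR libraries, all made at postnatal day 17 from mice that carry Cx3cr1CreERT2 and a Rosa26-tdTomato reporter and that were given tamoxifen (5 µl of 21 mg/ml) under the skin on postnatal day 1. In such mice the promoter of Cx3cr1, a receptor gene shared by microglia, border macrophages and monocytes, drives the recombinase, so both groups carry the same transgenes and both received the drug. The sorted cells were low in CD45, positive for CD11b and tdTomato, and without Ly6C and Ly6G on the surface. The labels give no count of animals and no number of animals per library, so p-values here measure the spread between libraries, part of which may be technical.

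The receptors bind sugars, lipids or proteins of microbes and of damaged cells through a lectin-like domain. Activating members signal through a tyrosine motif of their own or of an adaptor, Fcer1g or Tyrobp, to the kinase Syk and the Card9, Bcl10 and Malt1 complex, which leads to cytokine genes. Inhibitory members carry a motif that recruits phosphatases such as Ptpn6. Clec7a is the receptor for beta-glucan and is widely used as a marker of microglia that respond to damage. Clec4n binds alpha-mannans, and Clec4e (Mincle) and its partner Clec4d bind mycobacterial glycolipid. Clec5a pairs with Tyrobp. Clec4a2 (DCIR) and Clec12a are inhibitory, and Clec4a1 and Clec4a3 are relatives of Clec4a2.

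Summed gene counts lay between 20.8 and 30.0 M (mega-counts) in OIR libraries and between 13.6 and 28.0 M in nonOIR libraries. Of the 12496 genes that passed a filter on low counts, 10.9% passed an adjusted p of 0.05 between the groups (quasi-likelihood test of edgeR, Benjamini-Hochberg), with 6.39% higher in OIR and 4.56% lower. A code in the labels put 5 libraries of each group in lane 1 and 3 in lane 2 of the sequencer, and the labels do not say whether animals or library preparation were split in the same way. The same label holds a further code, of a meaning not given, in all 5 OIR libraries of lane 1 and in 2 of the 5 nonOIR libraries of lane 1 (replicates 1 and 2). No code occurs in both groups, so what it marks and the group cannot be told apart there. OIR replicate 1 stood apart from all others on the third principal component of the 500 most variable genes, and nonOIR replicate 8 on the fourth. Of the markers of the labelled cell type, the purinergic receptor gene P2ry12 stood at 6613 ± 1531 CPM in OIR and 11356 ± 1169 CPM in nonOIR (SD, n = 8 each). CPM is the count relative to a library's total after TMM scaling, in counts per mega-count. In bulk RNA fewer cells of a type and less RNA per cell cannot be told apart.

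All 9 genes lie on chromosome 6 (GENCODE M21, build mm10), in separate places. Clec5a lies at 40574894 to 40585821. Clec4a1, Clec4a3, Clec4a2, Clec4n, Clec4d and Clec4e follow one another between 122921848 and 123289870, with gaps of 15.1 kb between Clec4n and Clec4d and 6.5 kb between Clec4d and Clec4e. Clec12a (129342691 to 129365303) and Clec7a (129461591 to 129472779) are 96.3 kb apart. The annotation calls Clec7a a polymorphic pseudogene, and the other 8 protein coding. No exon of the 9 overlaps an exon of another gene. For reads of 50 bases, 6 of the 9 genes share no 50-base run with any other gene. Clec4a2 shares 202 of its 2959 runs (6.83%), mainly with its neighbours Clec4a4 and Clec4b1 and none with Clec4a3, so part of its reads could be lost or split in counting. Clec12a shares 0.457% and Clec4n 0.686% of runs.

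The receptors covered a wide range of levels. Per length of merged exons, Clec7a was highest, at 111 ± 26.0 RPKM (CPM per kilobase) in OIR and 70.9 ± 23.9 RPKM in nonOIR (SD, n = 8 each). Clec5a followed, at 47.0 ± 4.55 RPKM in OIR and 49.8 ± 5.50 RPKM in nonOIR, and Clec4a3 was next to it at 45.3 ± 10.1 RPKM in OIR and 47.3 ± 12.0 RPKM in nonOIR. These neighbours in the order did not differ beyond their spread, since Clec5a was above Clec4a3 in 3 of 8 OIR and 6 of 8 nonOIR libraries. In OIR the next places went to Clec4n (16.1 ± 13.4 RPKM) and Clec4a2 (14.9 ± 3.77 RPKM), which also lay within each other's spread. In nonOIR Clec4a2 (24.0 ± 5.69 RPKM) lay above Clec4n (5.47 ± 2.45 RPKM). Clec4a1 (3.22 ± 2.30 RPKM in OIR, 1.57 ± 1.06 in nonOIR), Clec4d (2.29 ± 2.00 RPKM in OIR, 0.0801 ± 0.15 in nonOIR), Clec12a (0.735 ± 0.547 RPKM in OIR, 0.655 ± 0.387 in nonOIR) and Clec4e (0.111 ± 0.186 RPKM in OIR, 0 in nonOIR) were lowest. Clec7a held 45.9 ± 4.14% of the summed RPKM of the 9 genes in OIR and 35.0 ± 5.53% in nonOIR. With coding length in place of exon length, Clec5a (336 per kilobase) ranked above Clec7a (256 per kilobase) in nonOIR and Clec7a (400.3 per kilobase) above Clec5a (316 per kilobase) in OIR.

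**Figure D1:**
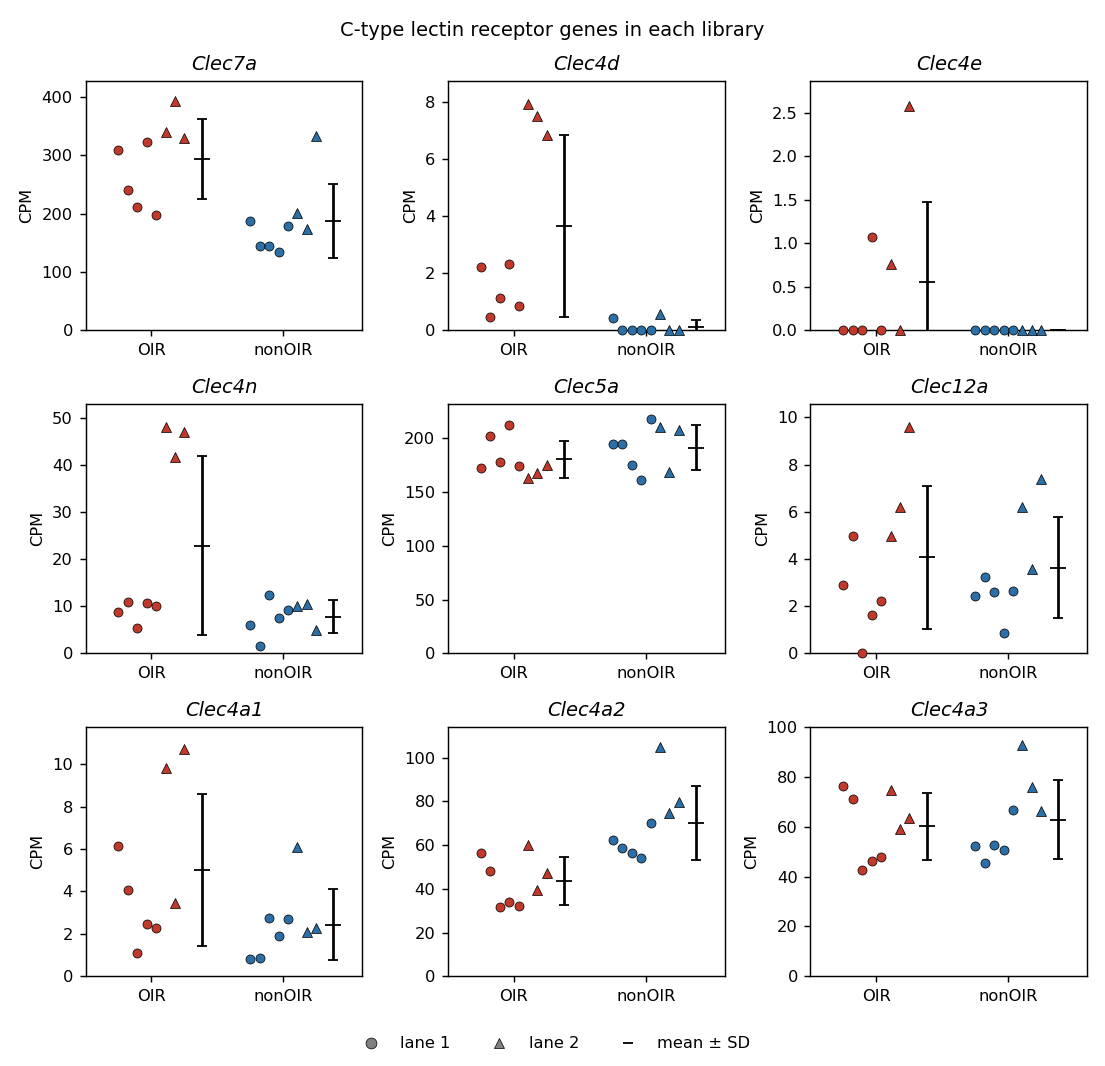
CPM of each of the 9 genes in each library (points), with OIR left of nonOIR, lane 1 as circles, lane 2 as triangles and the mean ± SD beside each group (8 libraries each). Clec4n and Clec4d have 3 OIR libraries of lane 2 well above the rest (41.6 to 48.1 CPM and 6.85 to 7.92 CPM), and Clec4e is at 0 in 13 of 16 libraries.

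Of the 8 members that passed the filter, 3 were past the threshold as higher in OIR (Clec7a, Clec4d and Clec4n), 1 as lower (Clec4a2) and 4 were not past it, beside 10.9% of all genes tested. This count rests on the values that chose the genes, and nothing is read from it. Without the low-count filter the number was again 4, with Clec4e in place of Clec4n, and with lane in the fit it was 3, without Clec4n. Clec4n was also not past the threshold when any 1 of OIR replicates 6, 7 or 8 or nonOIR replicates 1, 2, 4, 5, 6, 7 or 8 was left out. Clec4d had passed the filter only through its OIR libraries, and Clec4e did not pass it. In none of the 9 did the 8 OIR values lie apart from all 8 nonOIR values, which was so for 2.02% of all genes tested. Where groups are said below to lie apart within 1 lane, only 5 or 3 libraries of each group are compared. The share of all genes for which this holds was not counted, so nothing is read from it. Within lane 1 alone 1 member was past the threshold (Clec7a), beside 3.33% of genes, and within lane 2 alone 3 (Clec4d, Clec4n and Clec4a2), beside 15.4%. Without OIR replicate 1 and nonOIR replicate 8, left out together after the data were seen, the same number of members (4) was past the threshold.

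Clec7a had 198 CPM at the lowest, 315 at the median and 393 at the highest of the OIR libraries, against 135, 176 and 332 CPM in nonOIR. All 8 OIR libraries were above the nonOIR median, and the groups overlapped, since nonOIR replicates 8 (332 CPM) and 6 (201 CPM) lay above the lowest OIR library, replicate 5 (198 CPM). The means were 293 ± 68.6 CPM in OIR and 187 ± 63.0 CPM in nonOIR (SD, n = 8 each), a log2 fold change of 0.65 ± 0.18 (SE), or 0.81 without the 2 libraries that stood apart. Within lane 1 the OIR libraries (198 to 322 CPM) lay above the nonOIR libraries (135 to 187 CPM) without overlap, and in lane 2 the groups overlapped (330 to 393 CPM in OIR and 174 to 332 CPM in nonOIR). The log2 fold change was 0.71 ± 0.14 in lane 1 and 0.63 ± 0.21 in lane 2 (SE).

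Clec4d and Clec4e, whose products form a receptor pair and whose genes are neighbours in opposite orientation, were rare and were counted almost only in OIR. Their promoters (250 bases before to 50 after the start, RefSeq, GRCm38.p6) are given for that reason alone. The 2 genes did not share a pattern among the OIR libraries, since Clec4e was at 0 in 5 of 8 and Clec4d in none. The promoters lie at chr6:123261857-123262156 on the plus strand for Clec4d and chr6:123289822-123290121 on the minus strand for Clec4e. Capitals mark matches on either strand to the core of the hypoxia response element (ACGTG or GCGTG), which 43.8% of 27025 RefSeq promoters of this length hold.
Clec4d: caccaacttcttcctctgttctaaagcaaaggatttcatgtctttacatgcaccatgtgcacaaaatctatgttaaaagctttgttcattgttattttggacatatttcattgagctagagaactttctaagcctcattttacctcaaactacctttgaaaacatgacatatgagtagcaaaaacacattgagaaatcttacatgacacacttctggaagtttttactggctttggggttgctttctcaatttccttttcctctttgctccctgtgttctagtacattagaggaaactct
Clec4e: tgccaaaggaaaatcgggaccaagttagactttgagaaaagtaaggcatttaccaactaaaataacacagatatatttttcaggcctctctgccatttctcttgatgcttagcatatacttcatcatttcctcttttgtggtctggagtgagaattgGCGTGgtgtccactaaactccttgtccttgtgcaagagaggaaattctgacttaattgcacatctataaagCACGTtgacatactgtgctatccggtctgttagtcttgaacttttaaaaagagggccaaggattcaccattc
Clec4e holds 2 such matches and Clec4d none. Neither holds AGGAAGT, a PU.1 motif found in 9.6% of those promoters, or the AP-1 motif TGACTCA, found in 5.2%. A match is a string of letters and not a binding site.

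Clec4d had 0.469 CPM at the lowest, 2.28 at the median and 7.92 at the highest of the OIR libraries, and it was counted in all 8. In nonOIR it stood at 0 in 6 of 8 libraries and at 0.444 and 0.58 CPM in replicates 1 and 6, with 712 counts in all OIR libraries and 19 in all nonOIR libraries. The groups overlapped only because OIR replicate 2 (0.469 CPM) lay below nonOIR replicate 6. Within each lane they did not overlap, in lane 1 only by the gap between 0.469 CPM in OIR replicate 2 and 0.444 CPM in nonOIR replicate 1. The means were 3.67 ± 3.19 CPM in OIR and 0.128 ± 0.24 CPM in nonOIR (SD, n = 8 each), with a log2 fold change of 4.88 ± 1.03 (SE), or 6.15 without nonOIR replicate 6. Clec4e had 1.07 CPM in OIR replicate 4, 0.765 in replicate 6 and 2.58 in replicate 8. It stood at 0 in the other 5 OIR libraries and in all 8 nonOIR libraries. Its 112 OIR counts against 0 nonOIR counts put it at least 31.6-fold higher in OIR, taken against a floor of 3 counts over the pooled nonOIR libraries (0.0173 CPM), a bound that covers counting error only. OIR replicate 8 held 67 of the 112 counts, and without it the bound was 14.5-fold.

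Clec4n, 15.1 kb before Clec4d, differed mostly in lane 2. In lane 1 it had 8.78, 11.0, 5.43, 10.7 and 10.1 CPM in OIR replicates 1 to 5, against 6.07, 1.6, 12.3, 7.57 and 9.16 CPM in nonOIR replicates 1 to 5. In lane 2 it had 48.1, 41.6 and 47.0 CPM in OIR replicates 6 to 8, against 10.1, 10.5 and 4.91 CPM in nonOIR replicates 6 to 8. The groups overlapped in lane 1 and lay apart in lane 2. Over all libraries the means were 22.8 ± 19.0 CPM in OIR and 7.77 ± 3.47 CPM in nonOIR (SD, n = 8 each), and the log2 fold change was 1.55 ± 0.48 over all libraries, 0.33 ± 0.41 in lane 1 and 2.46 ± 0.29 in lane 2 (SE). With lane in the fit the log2 fold change was 1.11, and without any 1 library it was 1.33 to 1.73.

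Clec5a, the activating receptor that pairs with Tyrobp, was the steadiest of the 9 between libraries. It had 163 CPM at the lowest, 175 at the median and 212 at the highest of the OIR libraries, against 161, 195 and 218 CPM in nonOIR. Its log2 fold change was -0.09 ± 0.08 (SE), with means of 180.4 ± 17.5 CPM in OIR and 191 ± 21.1 CPM in nonOIR (SD, n = 8 each), so the difference was smaller than the spread within either group.

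Among the inhibitory receptors and their relatives, Clec4a2 was lower in OIR and its neighbour Clec4a3 was not. Clec4a2 had 31.5 CPM at the lowest, 43.5 at the median and 59.9 at the highest of the OIR libraries, against 54.0, 66.4 and 105 CPM in nonOIR. All 8 OIR libraries were below the nonOIR median, 6 of them below the lowest nonOIR library. In lane 2, with 3 libraries of each group, the values were 39.6 to 59.9 CPM in OIR and 74.7 to 105 CPM in nonOIR. Its means were 43.6 ± 11.0 CPM in OIR and 70.1 ± 16.7 CPM in nonOIR (SD, n = 8 each), with a log2 fold change of -0.69 ± 0.16 (SE). Clec4a3 had 42.8 CPM at the lowest, 61.2 at the median and 76.2 at the highest of the OIR libraries, against 45.4, 59.4 and 92.8 CPM in nonOIR. Its groups overlapped over nearly their whole range, and its log2 fold change of -0.06 ± 0.16 (SE) changed sign with library size scaling (0.00, just above 0) and in lane 1 (0.09).

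The promoters of this pair are given because one gene differed between the groups, the other did not, and yet they varied together among libraries. They lie at chr6:123122440-123122739 on the plus strand for Clec4a2 and at chr6:122952265-122952564 on the plus strand for the first of 2 annotated starts of Clec4a3 (RefSeq, GRCm38.p6). Capitals mark the AP-1 motif TGACTCA in Clec4a2 and the hypoxia response element core in Clec4a3, 1 match each.
Clec4a2: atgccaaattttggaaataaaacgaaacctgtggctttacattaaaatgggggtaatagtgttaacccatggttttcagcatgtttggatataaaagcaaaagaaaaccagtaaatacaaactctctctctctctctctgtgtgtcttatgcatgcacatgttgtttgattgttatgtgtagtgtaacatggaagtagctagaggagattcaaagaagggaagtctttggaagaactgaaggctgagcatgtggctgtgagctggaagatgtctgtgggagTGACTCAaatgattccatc
Clec4a3: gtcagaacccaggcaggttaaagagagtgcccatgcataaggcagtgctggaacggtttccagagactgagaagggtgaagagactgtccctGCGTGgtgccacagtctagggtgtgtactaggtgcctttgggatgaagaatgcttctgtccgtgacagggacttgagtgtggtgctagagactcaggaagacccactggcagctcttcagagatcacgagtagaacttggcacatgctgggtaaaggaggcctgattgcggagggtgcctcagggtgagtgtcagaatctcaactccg
The remaining promoters looked at (Clec7a, Clec5a, Clec12a and Clec4a1) hold none of these motifs in the same window.

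Within each library the ratio of Clec4a2 to Clec4a3 counts separated the groups. It was 0.672 at the lowest, 0.733 at the median and 0.799 at the highest of the OIR libraries, and 0.984, 1.10 and 1.29 in nonOIR, with no overlap. The means were 0.722 ± 0.0448 in OIR and 1.12 ± 0.101 in nonOIR (SD, n = 8 each). The ratio follows from values known when the genes were listed and is given as a description. How many other pairs of genes have a ratio that separates the groups as fully was not counted, so nothing is read from the separation. Since the groups did not overlap over all libraries, the ratio had to separate them within each lane as well.

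**Figure D2:**
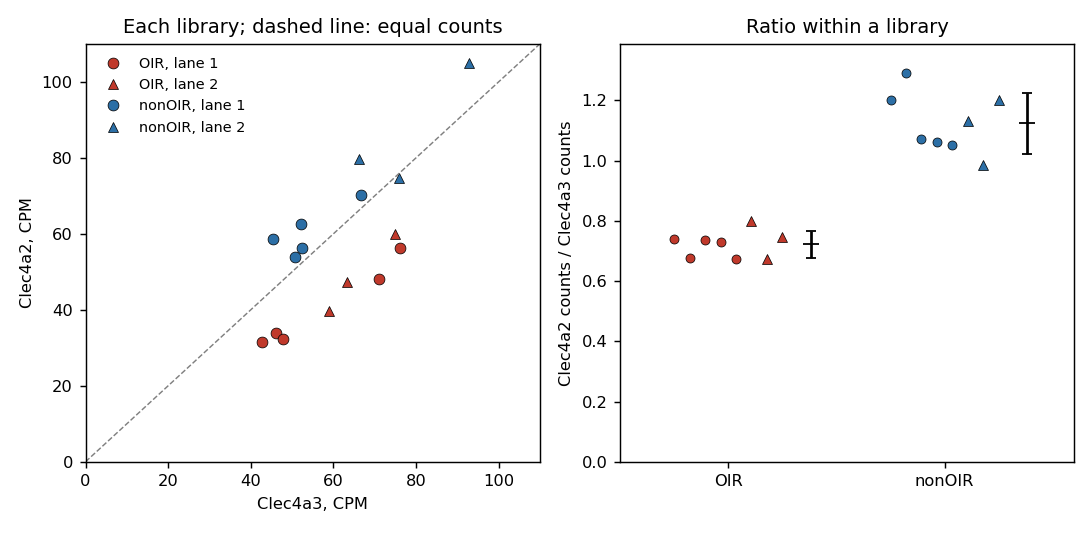
Left, CPM of Clec4a2 against CPM of Clec4a3 in each library with a dashed line at equal counts; right, the ratio of their counts in each library with the mean ± SD of each group (8 libraries each). The OIR libraries lie below the line (ratio 0.672 to 0.799) and the nonOIR libraries near or above it (0.984 to 1.29).

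Clec12a and Clec4a1 were low in both groups. Clec12a had 0 CPM at the lowest, 3.94 at the median and 9.59 at the highest of the OIR libraries, against 0.851, 2.94 and 7.39 CPM in nonOIR, and its 1 library at 0 (OIR replicate 3) allows up to 0.0976 CPM. Its log2 fold change was 0.16 ± 0.62 (SE) and -0.13 without OIR replicate 8. Clec4a1 had 1.11 CPM at the lowest, 3.75 at the median and 10.7 at the highest of the OIR libraries, against 0.815, 2.17 and 6.11 CPM in nonOIR. Its log2 fold change was 1.03 ± 0.47 (SE), with 7 of 8 OIR libraries above the nonOIR median.

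**Figure D3:**
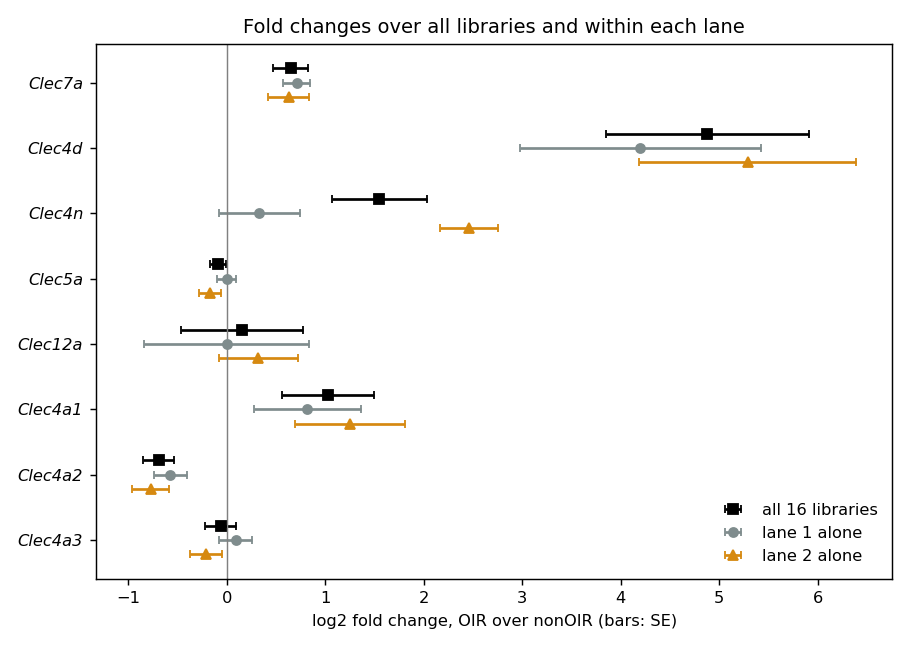
Log2 fold change (OIR over nonOIR) with its SE for the 8 members tested, over all 16 libraries (squares), in lane 1 alone (circles) and in lane 2 alone (triangles). The 3 estimates of Clec7a lie between 0.63 and 0.71, while those of Clec4n are 0.33 in lane 1 and 2.46 in lane 2.

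The lanes gave another comparison, made on the same counts that were known when the genes were listed. For Clec4n the lane difference lay mostly in OIR (lane 2 over lane 1 was 4.95-fold in OIR and 1.16-fold in nonOIR). The lane results of the members are therefore no support independent of that choice. With group as a covariate, 24.8% of all genes differed between lane 2 and lane 1, 11.0% higher and 13.8% lower in lane 2. Of the 8 members tested, 5 passed the threshold of edgeR as higher in lane 2 and none as lower. Clec7a rose in lane 2 by 0.52 ± 0.13 on the log2 scale (SE, edgeR adjusted p = 0.00649) and Clec4n by 1.37 ± 0.38 (edgeR adjusted p = 0.0129), and both kept the call without any 1 library (adjusted p up to 0.0244 and up to 0.0323). Clec4a2 (0.40 ± 0.14, edgeR adjusted p = 0.0377), Clec4a3 (0.38 ± 0.14, 0.0449) and Clec4a1 (1.13 ± 0.40, 0.0452) were close to the threshold. All of these 3 lost the call without OIR replicate 3, 4, 5 or 6 or nonOIR replicate 1, 2, 4 or 6. Clec4a2 and Clec4a3 also lost it without nonOIR replicate 3, Clec4a1 without OIR replicate 2 or 8, Clec4a2 without nonOIR replicate 8 and Clec4a3 without nonOIR replicate 7 (edgeR adjusted p up to 0.124 for Clec4a2, 0.139 for Clec4a3 and 0.158 for Clec4a1). Without the low-count filter 2 members were called, Clec7a and Clec4a2, and Clec4n (1.37, edgeR adjusted p = 0.0564), Clec4a1 (0.07) and Clec4a3 (0.0527) were not. Clec12a (log2 difference 1.42 ± 0.53), Clec4d (2.06 ± 0.83) and Clec5a (-0.05 ± 0.08) did not pass (edgeR adjusted p = 0.0586, 0.0781 and 0.709). Clec12a passed without OIR replicate 2 (1.65, edgeR adjusted p = 0.0374) or OIR replicate 3 (1.27, 0.0077) and with library size scaling (1.5, 0.0436). Clec4d passed without nonOIR replicate 1 (2.88, edgeR adjusted p = 0.00938), 7 (2.27, 0.0438) or 8 (2.27, 0.0449).

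The test of whether the OIR difference itself changed between the lanes called 0.496% of all genes, and 0 of the 8 members. Clec4n came closest, with a log2 difference between the lanes of 2.09 ± 0.59 (SE). It was the 1 member of 8 at an unadjusted p under 0.05 in edgeR, near the 13.1% of all genes, so nothing is read from this. Clec4n passed the threshold without nonOIR replicate 2 (log2 difference 2.37). These values rest on differences known when the genes were listed, so they are a description and no p-value is given for them. Lane 2 was also set against lane 1 inside each group, a comparison added after the data were seen. It rests on values known when the genes were listed, so the differences are given as a description, with no p-value. Inside OIR 4.98% of genes were called higher in lane 2, Clec4n (log2 difference 2.28 ± 0.22, SE) and Clec4d (2.37 ± 0.50) among them. Inside nonOIR 4.39% of genes were called higher, Clec4a2 (0.50 ± 0.13) and Clec4a3 (0.53 ± 0.15) among them. The log2 difference of Clec4n inside nonOIR was 0.19 ± 0.50.

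Genes of border macrophages and of monocytes had their highest sums in the same 3 OIR libraries of lane 2. The 10 border macrophage markers summed to a mean of 308 CPM in lane 1 and 564 CPM in lane 2 of OIR, and to 250.3 CPM in lane 1 and 187 CPM in lane 2 of nonOIR. Of these 10, edgeR called 1 higher in OIR over all libraries (DESeq2 called 3) and 0 lower, or 10.0% beside 10.9% of all genes. It was Siglec1, a sialic acid receptor named after its values were seen (14.9 ± 9.90 CPM in OIR and 1.75 ± 1.36 CPM in nonOIR, log2 fold change 3.09 ± 0.49, SE, edgeR adjusted p = 0.000647). Siglec1 averaged 15.8 CPM in lane 1 and 13.4 CPM in lane 2 of OIR, and the scavenger receptor gene Stab1 199 and 169.6 CPM. All other markers of this list averaged higher in lane 2 than in lane 1 of OIR. Pf4, for example, averaged 25.3 and 164 CPM in lanes 1 and 2 of OIR, and Ms4a7 20.5 and 91.0 CPM. Mrc1, the mannose receptor, stood at 43.8 ± 26.5 CPM in OIR and 24.4 ± 16.1 CPM in nonOIR, and the haemoglobin scavenger receptor gene Cd163 at 8.90 ± 9.56 and 3.36 ± 4.42 CPM in OIR and nonOIR. The 14 monocyte markers summed to a mean of 99.7 CPM in lane 1 and 213 CPM in lane 2 of OIR, and to 76.1 and 84.9 CPM in lanes 1 and 2 of nonOIR. F13a1, a coagulation factor gene that macrophages also express, made up most of the difference between the OIR lanes, with 19.6 CPM in lane 1 and 99.7 CPM in lane 2 of OIR, against 21.4 CPM in lane 1 and 14.0 CPM in lane 2 of nonOIR. Ms4a6c (37.7 and 63.0 CPM), Ms4a4c (14.6 and 20.3 CPM) and Treml4 (4.63 and 11.8 CPM) were also higher in lane 2 than in lane 1 of OIR. Ccr2 (6.26 and 3.49 CPM), Itgal (10.5 and 8.70 CPM) and Plac8 (4.21 and 1.6 CPM) were lower in lane 2 than in lane 1 of OIR. Over all libraries the monocyte sum ranged between 80.3 and 226 CPM in OIR and between 50.2 and 119 CPM in nonOIR, and the border macrophage sum between 259 and 583 CPM in OIR and between 120.4 and 376 CPM in nonOIR. Of 9 monocyte markers tested edgeR called 2 higher in OIR and 0 lower (22.2%, beside 10.9% of all genes). The 2 were Ms4a4c and Treml4, the second named after its value was seen. DESeq2 called 5 of the 14 listed. Of all genes it called 1135 higher and 884 lower, against 798 and 570 in edgeR. Its counts for the marker lists, here and below, therefore have another background than 10.9%, and nothing is read from them. The call of Ms4a4c was lost without OIR replicate 4, 6, 7 or 8 or any 1 of nonOIR replicates 1 to 5 (edgeR adjusted p up to 0.0863). Ly6c2, which defines the inflammatory monocytes that the sort left out, had 0 counts in all 16 libraries, and the chemokine receptor gene Ccr2 stood at 5.22 ± 3.78 CPM in OIR and 5.44 ± 1.32 CPM in nonOIR (SD, n = 8 each). The part of such cells in the levels of Clec4n and Clec4d was not tested.

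**Figure D4:**
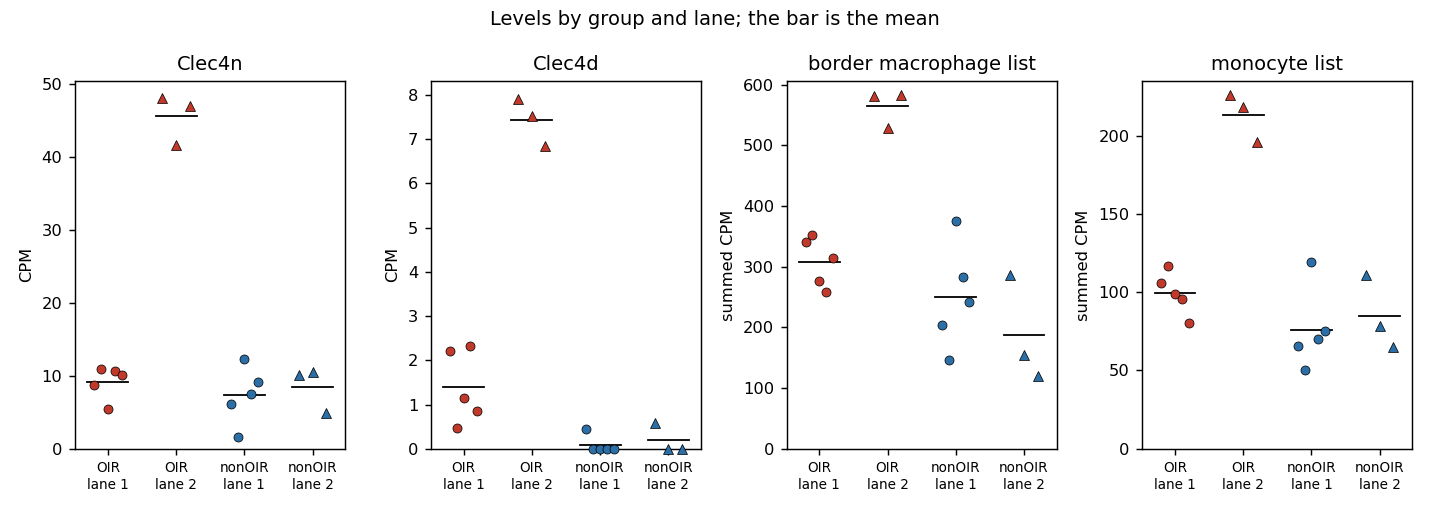
Clec4n and Clec4d (CPM) and the summed CPM of 10 border macrophage and 14 monocyte markers in each library, by group and lane, with a bar at the mean. The 3 OIR libraries of lane 2 are the highest in each panel, with means of 45.6, 7.43, 564 and 213 CPM.

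The sums of neutrophil and of dendritic cell markers overlapped between the groups. The 14 neutrophil markers, of which 2 could be tested and 0 passed in edgeR (0 at an unadjusted p under 0.05, and 1 of the 14 by DESeq2), summed to between 189 and 344 CPM in OIR and between 216 and 375 CPM in nonOIR, nearly all from Csf3r, and Ly6g had 0 counts in all 16 libraries. S100a8 and S100a9, abundant neutrophil proteins, had 60 and 1 counts in all in OIR and 1 and 7 counts in all in nonOIR. The 12 dendritic cell markers, of which 9 were tested and 0 passed in edgeR (3 at an unadjusted p under 0.05, and 3 by DESeq2), summed to between 794 and 980 CPM in OIR and between 805 and 966 CPM in nonOIR. Most of this sum came from Irf8 (679.7 ± 46.4 CPM in OIR and 756 ± 37.9 CPM in nonOIR). The neutrophil and dendritic cell sums thus each follow mainly 1 gene, and their overlap says little about the other markers. Among the dendritic cell markers Flt3 stood at 1.46 ± 1.17 CPM in OIR and 1.90 ± 1.24 CPM in nonOIR, and Zbtb46 at 7.94 ± 5.57 and 7.52 ± 3.75 CPM in OIR and nonOIR. Of 12 microglial markers 5 were lower in OIR and 0 higher (41.7%, beside 10.9% of all genes). The sum of the 12 lay between 42990 and 72064 CPM in OIR and between 71499 and 91012 CPM in nonOIR. Tmem119, for example, fell to 2797 ± 548 CPM in OIR, against 4570 ± 373 CPM in nonOIR (log2 fold change -0.71 ± 0.11, SE, edgeR adjusted p = 0.00055).

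Among libraries of the same group and lane, the receptors varied largely on their own. After the mean of each group and lane was removed from log2(CPM + 1), the 5 members with a mean of at least 10 CPM gave 10 pairs, of which 1 was correlated after adjustment over the 10. Clec4a2 and Clec4a3 had Pearson's r = 0.92 (permutation p = 0.00048, adjusted 0.0048) and Spearman's rho = 0.83 (permutation p = 0.00144, adjusted 0.0144) over 16 libraries, with r = 0.88 without the 2 libraries farthest from the median of Clec4a2. Both were permuted 100000 times within group and lane, two-sided. The other 9 pairs had r between -0.13 and 0.55 and adjusted permutation p-values of at least 0.195.

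Of 7809 genes of that level, Clec4a3 was the most like Clec4a2, followed by Ms4a6b (r = 0.88) and Gas5 (r = 0.88). Clec4a3 in turn was followed most closely, after Clec4a2, by Gas5 (r = 0.90) and Rpl7 (r = 0.90). The genes most like Clec4n were F13a1 (r = 0.86) and Pf4 (r = 0.85), which are in the monocyte and the border macrophage list, and Mgarp (r = 0.82). Clec7a was most like Dnajc8 (r = 0.89), Cd86 (r = 0.87), a costimulatory receptor gene, and Bfar (r = 0.87), and Clec5a most like Tomm22 (r = 0.88), Atp5f1 (r = 0.88) and Rbm3 (r = 0.87). These genes were picked for their r over the same 16 libraries, so no p is given, and values of 1 library share its depth and preparation.

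Most genes through which these receptors signal did not pass the test between the groups. Of 35 adaptor and activating signalling genes, 2 rose and 2 fell in OIR (11.4%, beside 10.9% of all genes), with a median log2 fold change of -0.05 beside -0.03 over all genes. With lane in the fit 9 of the 35 passed. That fit also called more of all genes, 1210 higher and 949 lower, against 798 and 570 without lane. The 9 are therefore not to be set beside the 10.9%. The adaptor genes were the highest of the list: Tyrobp stood at 2165 ± 237 CPM in OIR and 2083 ± 279 CPM in nonOIR, and Fcer1g at 1661 ± 255 and 1724 ± 262 CPM in OIR and nonOIR (SD, n = 8 each). The Src family kinase gene Lyn stood at 806 ± 86.4 CPM in OIR and 913 ± 100.2 CPM in nonOIR. Fgr, another Src family kinase, rose to 35.3 ± 5.92 CPM in OIR, against 22.5 ± 4.45 CPM in nonOIR (log2 fold change 0.65 ± 0.14, SE, edgeR adjusted p = 0.00538). Map3k7 (TAK1), a kinase upstream of NF-kB, rose to 45.1 ± 6.40 CPM in OIR, against 34.6 ± 3.33 CPM in nonOIR (0.39 ± 0.10, edgeR adjusted p = 0.0242), a call that missed the threshold without the low-count filter (adjusted p = 0.0549). Malt1, the protease of the Card9 complex, fell to 12.2 ± 4.18 CPM in OIR, against 20.4 ± 5.52 CPM in nonOIR (-0.74 ± 0.21, edgeR adjusted p = 0.0288), a call lost without OIR replicate 3, 4 or 8 or nonOIR replicate 2, 3 or 6 (adjusted p up to 0.0655). Blnk, an adaptor for Syk, fell to 186 ± 17.9 CPM in OIR, against 235 ± 42.8 CPM in nonOIR (-0.33 ± 0.10, edgeR adjusted p = 0.0472), a call lost without any 1 of OIR replicates 3 to 8 or nonOIR replicates 1, 2, 4, 5 and 8 (adjusted p up to 0.109). Syk (102 ± 37.7 CPM in OIR and 104 ± 42.1 CPM in nonOIR) and Card9 (12.1 ± 6.53 CPM in OIR and 13.0 ± 7.68 CPM in nonOIR) are given as the core of the pathway, chosen after their values were seen, and did not pass.

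Of 11 inhibitory signalling genes 1 rose and 0 fell (9.09%, beside 10.9% of all genes), with a median log2 fold change of -0.17 beside -0.03 over all genes. The phosphatase genes Inpp5d (594 ± 212 CPM in OIR and 582 ± 214 CPM in nonOIR) and Ptpn6 (480.2 ± 116 CPM in OIR and 522 ± 123 CPM in nonOIR) and the adaptor gene Sla (422 ± 62.3 CPM in OIR and 475 ± 26.4 CPM in nonOIR) were highest, and none of the 3 passed. Dok2, an adaptor that recruits a Ras inhibitor, rose to 5.39 ± 4.55 CPM in OIR, against 1.08 ± 0.647 CPM in nonOIR (log2 fold change 2.32 ± 0.68, SE, edgeR adjusted p = 0.0342). Its call was lost without OIR replicate 3, 6, 7 or 8 or nonOIR replicate 2, 3, 4 or 8 (edgeR adjusted p up to 0.0871), and its OIR mean was 2.64 CPM in lane 1 and 9.97 CPM in lane 2.

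Of 3 genes for host ligands, Vim, whose intermediate filament protein binds Clec7a, rose to 46.0 ± 27.1 CPM in OIR, against 9.50 ± 2.77 CPM in nonOIR (log2 fold change 2.27 ± 0.30, SE, edgeR adjusted p = 0.00022), and in OIR it averaged 27.8 CPM in lane 1 and 76.2 CPM in lane 2. Lgals9, a galectin that binds Clec7a, stood at 697 ± 86.6 CPM in OIR and 570.3 ± 78.2 CPM in nonOIR (edgeR adjusted p = 0.0505). Sap130, a nuclear protein that Clec4e senses when cells die, stood at 14.4 ± 7.61 CPM in OIR and 15.3 ± 6.39 CPM in nonOIR.

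Among 27 genes that such receptors are known to induce or act through, 16 could be tested, of which 5 rose and 1 fell in OIR (37.5%, beside 10.9% of all genes), with a median log2 fold change of 0.22 beside -0.03 over all genes. The list was written with results of these libraries known, so this is no independent evidence of its direction. Ccl4, a chemokine gene, stood at 44.4 to 233 CPM in OIR and 16.6 to 45.1 CPM in nonOIR (log2 fold change 1.74 ± 0.34, SE, edgeR adjusted p = 0.00334). The related chemokine gene Ccl3 stood at 56.8 ± 19.8 CPM in OIR and 30.3 ± 5.52 CPM in nonOIR (edgeR adjusted p = 0.00369), the cytokine gene Tnf at 7.12 ± 2.08 and 2.35 ± 1.25 CPM in OIR and nonOIR (edgeR adjusted p = 0.00315), and Il1b at 15.3 ± 4.16 and 7.48 ± 2.44 CPM in OIR and nonOIR (edgeR adjusted p = 0.00505). Csf1, a growth factor for macrophages named after its values were seen, stood at 41.9 ± 12.4 and 18.7 ± 8.94 CPM in OIR and nonOIR (edgeR adjusted p = 0.0126). In each of these 5 all 8 OIR libraries were above the nonOIR median. Not all of the list went up. Il6, also named after its values were seen, stood at 1.44 ± 1.25 CPM in OIR and 3.87 ± 1.15 CPM in nonOIR. All 8 of its OIR libraries were below the nonOIR median, and it did not pass (log2 fold change -1.43 ± 0.57, SE, edgeR adjusted p = 0.122). Nfkbia, named in the same way, did not pass either (-0.41 ± 0.14, edgeR adjusted p = 0.0745). Casp8, the initiator caspase, fell to 273 ± 29.4 CPM in OIR, against 325 ± 24.8 CPM in nonOIR (-0.25 ± 0.08, edgeR adjusted p = 0.0384), a call lost without any 1 of OIR replicates 4 to 8 or nonOIR replicates 1, 2, 3, 5 and 8 (adjusted p up to 0.0911) and with library size scaling (adjusted p = 0.0843). The highest of the others, Pycard (168 ± 17.9 CPM in OIR and 144 ± 19.4 CPM in nonOIR) and Il1a (142 ± 30.1 CPM in OIR and 149.6 ± 22.6 CPM in nonOIR), did not pass.

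Of 54 other C-type lectin genes 13 could be tested, and 2 rose and 0 fell in OIR (15.4%, beside 10.9% of all genes), with a median log2 fold change of 0.58 beside -0.03 over all genes. Cd72, an inhibitory co-receptor best known from B cells, rose to 124 ± 45.2 CPM in OIR, against 73.5 ± 8.64 CPM in nonOIR (log2 fold change 0.75 ± 0.17, SE, edgeR adjusted p = 0.00936), and within OIR it averaged 92.8 CPM in lane 1 and 175 CPM in lane 2. Olr1, a receptor for oxidised lipoprotein, rose to 9.16 ± 2.94 CPM in OIR, against 4.62 ± 1.96 CPM in nonOIR (0.99 ± 0.28, edgeR adjusted p = 0.0274), a call lost without OIR replicate 3 or nonOIR replicate 2 or 7 (adjusted p up to 0.0539). Of the 54 genes, 2 (Mrc1 and Colec12) are also in the border macrophage list and 1 (Cd209a) is in the dendritic cell list. Cd302 was the highest of the list, at 175 ± 29.6 CPM in OIR and 223 ± 53.4 CPM in nonOIR, and did not pass. The neighbours of Clec4a2 on chromosome 6 had few counts: Clec4a4 had 53 counts in all in OIR and 42 in nonOIR, Clec4b1 had 20 in OIR and 30 in nonOIR, and Clec4b2 had 0 in all 16. They were named for their place and their shared sequence after their values were seen.

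**Figure D5:**
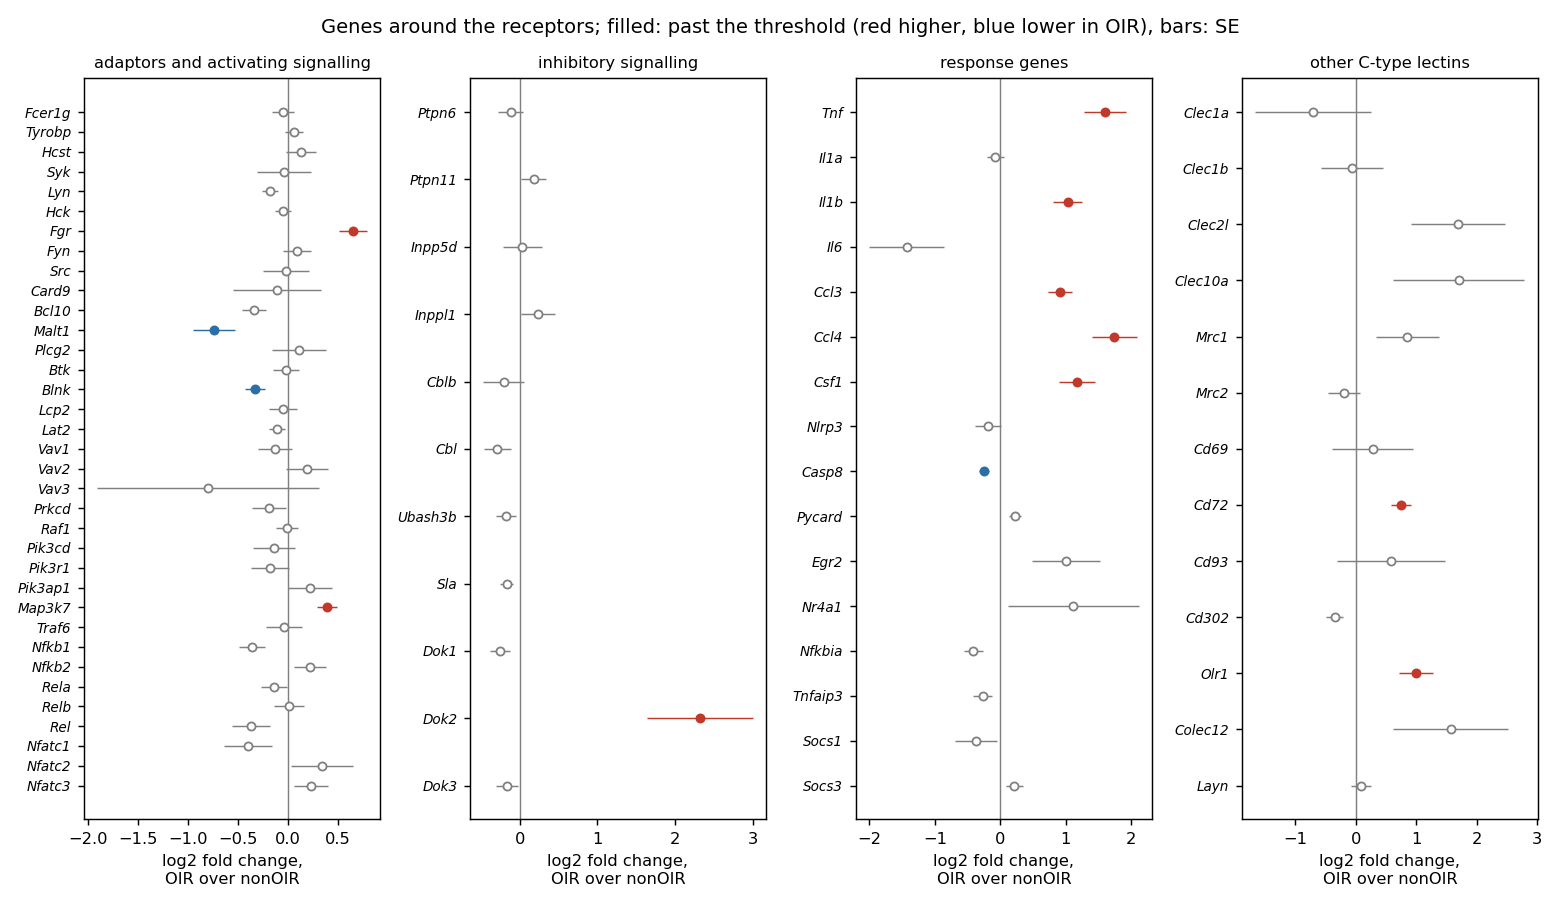
Log2 fold change (OIR over nonOIR, x axis) with its SE for the tested genes of 4 lists; filled points passed the threshold, red higher and blue lower in OIR. Of 35 adaptor and activating signalling genes 4 passed, of 11 inhibitory genes 1, of 16 response genes 6 and of 13 other C-type lectins 2.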

How the data were processed

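The 9 receptors and the gene lists were chosen with earlier results of these data known. Per the labels' protocols, 750 pg of RNA were amplified over 12 cycles and read as single reads of 50 bases. This chemistry keeps no strand, and there were no molecular identifiers, so bounds describe counting error alone. The deposited raw columns are gene counts in whole numbers. Per the submitters' processing notes the tools included STAR 2.6.0b-1 and featureCounts 1.6.2, with the mm10 build; the annotation behind the counts is not stated there. The authors' normalized signal columns, their log2 fold changes, the Wald score and the p-values in the deposited table were read but not used for any result.

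After the filterByExpr filter and TMM scaling, edgeR 4.0.16 (R 4.3.3) was run on the counts (robust quasi-likelihood fit, two-sided, Benjamini-Hochberg over 12496 genes, threshold 0.05). The group fit had no covariate, the lane fit had the group as covariate, and another held their interaction. Each SE is the log2 fold change divided by the square root of F. The biological coefficient of variation was 40.3%. Tests across all genes were tested on simulated data. RPKM used merged exon lengths of GENCODE M21. Correlations used log2(CPM + 1). Every 2 libraries of a group differed by more than sampling noise (chi-square of 15.7 or more per gene). Named were the 9 members, up to 4 called genes with the lowest p and the 3 highest genes of each list, preset defining markers, and the 3 genes most like each member with at least 10 CPM. Of the named genes of the marker lists only some are printed, and values of some single genes are not reported here. Promoters came from RefSeq tables for 8 of the 9 members (not Clec4n). Alternatives covered scaling, filter, DESeq2 1.42.0, lane, replicate number and the omission of each library.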

Additional observations from a re-analysis of the deposited data

Results flagged for a closer look

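Of 17 sets of 8 libraries checked for a single library far from the others, 3 were marked by Dixon's test. Its chance rate of about 1 in 20 holds for normally distributed values, which CPM need not be. The marked set of Clec4e, for example, was at 0 in 5 of 8 OIR libraries. No excess over chance is read from the 3. Clec7a was at 332 CPM in nonOIR replicate 8, with the next nonOIR library at 201 CPM. Clec4e was at 2.58 CPM in OIR replicate 8, with the next OIR library at 1.07 CPM. Clec4a1 was at 6.11 CPM in nonOIR replicate 6, with the next nonOIR library at 2.73 CPM.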

How the results depend on the processing

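Depth limits the low members most: Clec4e had 0 counts in 13 of 16 libraries and Clec4d in 6 of 8 nonOIR libraries. The groups have 5 and 3 libraries per lane, so a within-lane value rests on few libraries.

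Against 798 genes higher and 570 lower in OIR, scaling by library size alone gave 364 lower, no filter 343 lower, DESeq2 884 lower, lane as a covariate 1210 higher and 949 lower, lane 1 alone 276 and 141, and lane 2 alone 1260 higher. The share of calls that were higher in OIR was 58.3% with TMM, 73.7% with library size alone and 51.1% with upper-quartile scaling, while the median log2 fold change of all genes stayed between -0.06 and 0.04. Members called numbered 4, or 3 with lane as a covariate, 1 in lane 1 alone and 3 in lane 2 alone. The 4 without the filter held Clec4e in place of Clec4n (log2 fold change 1.57). For the lanes they numbered 5, or 6 with library size alone and 2 without the filter. The bound for Clec4e was 14.5-fold to 37.2-fold without single OIR libraries. Called genes of the lists were, for other C-type lectins (2), 1 in lane 1, 5 in lane 2 and 1 with the replicate block; for adaptors and signalling (4), 2 without the filter, 9 with lane as a covariate, 2 in lane 1 and 9 with the block; and for inhibitory signalling (1), 0 in lane 1 and 2 in lane 2. The causes were not tested.

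Leaving out 1 library in turn gave 582 to 908 higher and 353 to 648 lower (353 without OIR replicate 6), 3 to 4 members called, 1 to 2 other lectins, 2 to 5 signalling, 0 to 1 inhibitory and 5 to 7 response genes; for the lanes 1123 to 1458 higher, 1482 to 1825 lower and 2 to 5 members; and for the difference between lanes 14 to 105 higher, 7 to 40 lower (14 and 7 without OIR replicate 8, 105 and 40 without OIR replicate 3) and 0 to 1 members.

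The sign turned for Clec4a3 (0.00 with library size alone, 0.09 in lane 1, 0.01 without OIR replicate 3, 0.04 without nonOIR replicate 6, down to -0.12 without others), Clec12a (-0.07 with the replicate block, -0.13 without OIR replicate 8, up to 0.40 without other single libraries), the lane difference of Clec5a (0.02 with library size alone), and the difference between lanes of Clec4d (-2.85 without nonOIR replicate 1, up to 6.23 without others) and Clec7a (0.23 without nonOIR replicate 8, down to -0.29 without others).

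Libraries with the same replicate number deviated together only weakly (r of 0.01 to 0.30, over 0.1 in 4 of 8 pairs; 2 of 8 OIR libraries correlated best with their own number), so the numbers were not taken as pairs. With the replicate block 965 genes were higher and 714 lower, 3 members were called, Clec4n (1.29) was not, and Clec4d had 5.91. A planned comparison of protein sequences was not run.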
